A study of Mus musculus with 6 samples.

Results

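Leukocyte adhesion genes of the endothelium were examined in liver sinusoidal endothelial cells (LSECs), the fenestrated cells that line the hepatic sinusoids. The set was a fixed list of 10 gene symbols, and each of the 10 was found once among the 23282 rows of the count files. It holds the immunoglobulin family members *Icam1*, *Icam2*, *Vcam1*, *Madcam1* and *Pecam1*, the selectins *Sele* and *Selp*, the sialomucin *Cd34*, the hyaluronan receptor *Cd44*, and *Aoc3*, the gene of vascular adhesion protein 1. LSECs of TXNIP-/- mice gave 3 libraries and LSECs of WT mice gave 3. The study's methods describe TXNIP-/- as a whole-body knockout on C57BL/6J and WT as C57BL/6J, so every cell type of the TXNIP-/- mice carried the deletion. Cells came from collagenase-perfused livers after density gradient centrifugation and magnetic selection with an antibody to CD146. The sources used here give no age, sex, diet or treatment for these libraries, and do not say whether RNA came from fresh or cultured cells. They also do not say whether the 3 libraries of a genotype came from separate mice, so the p-values measure the spread between these libraries, which may be technical.

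Leukocytes leave the blood in steps. Selectins on the endothelium slow the flowing cell, leukocyte integrins then bind ICAM-1 and VCAM-1, and PECAM-1 and other junction molecules take part in the passage through the wall. The hepatic sinusoid is known for depending less on selectins than other vessels. There, neutrophils can hold to hyaluronan on the sinusoidal wall through CD44, lymphocytes use ICAM-1, VCAM-1 and vascular adhesion protein 1, and capillarized LSECs are commonly described as gaining CD34 and adhesion molecules. The comparison of TXNIP-/- with WT therefore addressed whether adhesion genes were higher in LSECs lacking TXNIP, the thioredoxin-interacting protein.

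The libraries held 9147764 to 10193952 counts. The library method is built to read from near the polyadenylated end of a transcript, so a level should not grow with transcript length. The unit of level is CPM, a count scaled to a common library size by trimmed mean of M-values (TMM) factors, shown as mean ± SD over n = 3 libraries per genotype. *Txnip* had 191 to 269 counts in the TXNIP-/- libraries and 1901 to 2019 in the WT libraries, so all 6 matched their labels. WT replicate 3 stood apart, with 37.0 and 40.2 chi-square units per degree of freedom from WT replicates 1 and 2, which were 3.93 from each other. The ribosomal RNA precursor *Rn45s* took less of the counts in WT replicates 1 and 2, from 9.68% upward, than in the other 4 libraries, with up to 18.6%. The chi-square distances kept this row, with 977572, 963048 and 1731013 counts in WT replicates 1, 2 and 3. Part of the distance of WT replicate 3 is therefore *Rn45s*, and its share was not separated. The LSEC markers *Stab2* and *Lyve1* were present in every library, at 184.9 CPM or more and 1475 CPM or more.

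A member was called when edgeR's quasi-likelihood test gave an adjusted p under 0.05, over all 11583 genes that passed the filter on low counts, with a fold change above 1.3. By this rule 167 genes (1.44%) were called, 59 higher in TXNIP-/- (0.509%) and 108 lower (0.932%), and the number called moved to 89 to 98 without WT replicate 1 or 2 or TXNIP-/- replicate 1 or 2, and to 301 without WT replicate 3. With no normalization factors, 35 of 180 calls were higher. Of the 10 adhesion genes, 8 passed the filter and *Madcam1* and *Aoc3* did not. *Cd44* was called higher and none was called lower by edgeR or by DESeq2, and 7 were tested and not called. *Cd44* was also the only member with an unadjusted p under 0.05.

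Promoter sequence was found for 6 members, and 3 are shown because *Icam1* and *Sele* are classical targets of inflammatory signaling in endothelium and *Cd44* was the member that rose. Each is the 300 bases from 250 before to 50 after the RefSeq start on GRCm38.p6, written 5′ to 3′ on the gene's strand. Capitals mark matches on either strand to a kappaB-like motif, GGNNNTTCC, or to an AP-1 motif, TGANTCA. The windows are chr2:102901616-102901915 (minus strand) for *Cd44*, chr9:21015690-21015989 (plus strand) for *Icam1* and chr1:164047984-164048283 (plus strand) for *Sele*.
Cd44: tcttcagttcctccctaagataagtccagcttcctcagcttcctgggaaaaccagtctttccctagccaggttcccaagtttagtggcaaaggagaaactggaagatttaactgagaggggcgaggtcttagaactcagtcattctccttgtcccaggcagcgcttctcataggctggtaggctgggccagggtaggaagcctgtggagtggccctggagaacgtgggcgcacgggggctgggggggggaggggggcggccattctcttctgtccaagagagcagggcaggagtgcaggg
Icam1: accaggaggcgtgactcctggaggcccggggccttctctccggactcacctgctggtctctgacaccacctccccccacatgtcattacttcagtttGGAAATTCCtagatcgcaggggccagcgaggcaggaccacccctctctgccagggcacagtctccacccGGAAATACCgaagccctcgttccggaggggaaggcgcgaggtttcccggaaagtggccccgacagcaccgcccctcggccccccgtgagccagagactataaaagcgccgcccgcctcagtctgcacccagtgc
Sele: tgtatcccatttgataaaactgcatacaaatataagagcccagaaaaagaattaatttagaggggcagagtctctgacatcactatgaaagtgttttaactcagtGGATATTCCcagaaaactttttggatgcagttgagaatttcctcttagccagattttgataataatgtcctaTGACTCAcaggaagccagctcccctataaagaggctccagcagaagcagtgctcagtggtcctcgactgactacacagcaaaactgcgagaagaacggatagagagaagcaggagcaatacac

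The *Icam1* window held the kappaB-like matches GGAAATTCC at bases 98 to 106 and GGAAATACC at bases 167 to 175, a TATAAA at bases 264 to 269, and the GC box GGGCGG read on the other strand, CCGCCC, at bases 234 to 239 and 274 to 279. The *Sele* window held GGATATTCC at bases 106 to 114, the AP-1 match TGACTCA at bases 178 to 184 and a TATAAA at bases 202 to 207. The *Cd44* window held no kappaB-like, AP-1 or TATAAA match and a GC box, GGGCGG, at bases 254 to 259. Among the other 3 windows, *Selp* and *Madcam1* held kappaB-like matches, *Selp* held an AP-1 match, and *Cd34* held none of these motifs. Of 32851 promoter windows of this length, 18.5% held the kappaB-like motif, 7.81% the AP-1 motif, 13.6% TATAAA and 35.7% GGGCGG. A match is a run of letters and not a shown binding site.

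*Cd44* (GRCm38 chromosome 2, 102811141 to 102901665, minus strand, GENCODE M21) encodes a surface receptor for hyaluronan that leukocytes and many other cells carry. Its level was 47.0, 35.8 and 41.9 CPM in TXNIP-/- replicates 1, 2 and 3, and 25.1, 25.1 and 19.3 CPM in WT replicates 1, 2 and 3. Every TXNIP-/- library was above every WT library. The means were 41.6 ± 5.62 and 23.1 ± 3.37 CPM, a fold of 1.79 with a 95% interval of 1.41 to 2.29. The log2 fold change was 0.84 with a standard error of 0.17, and the adjusted p was 0.0121 by edgeR's quasi-likelihood test. The call was lost without TXNIP-/- replicate 1 (log2 fold change 0.75, adjusted p = 0.0977 by edgeR) and without TXNIP-/- replicate 3 (0.83, adjusted p = 0.0579). Without WT replicate 3 the log2 fold change was 0.73 with an adjusted p of 0.0200 by edgeR. Against WT replicate 3 alone, by a term for WT replicates 1 and 2, it was 1.11. That fit has a single WT library as its reference, so only its effect sizes are given.

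**Figure D1:**
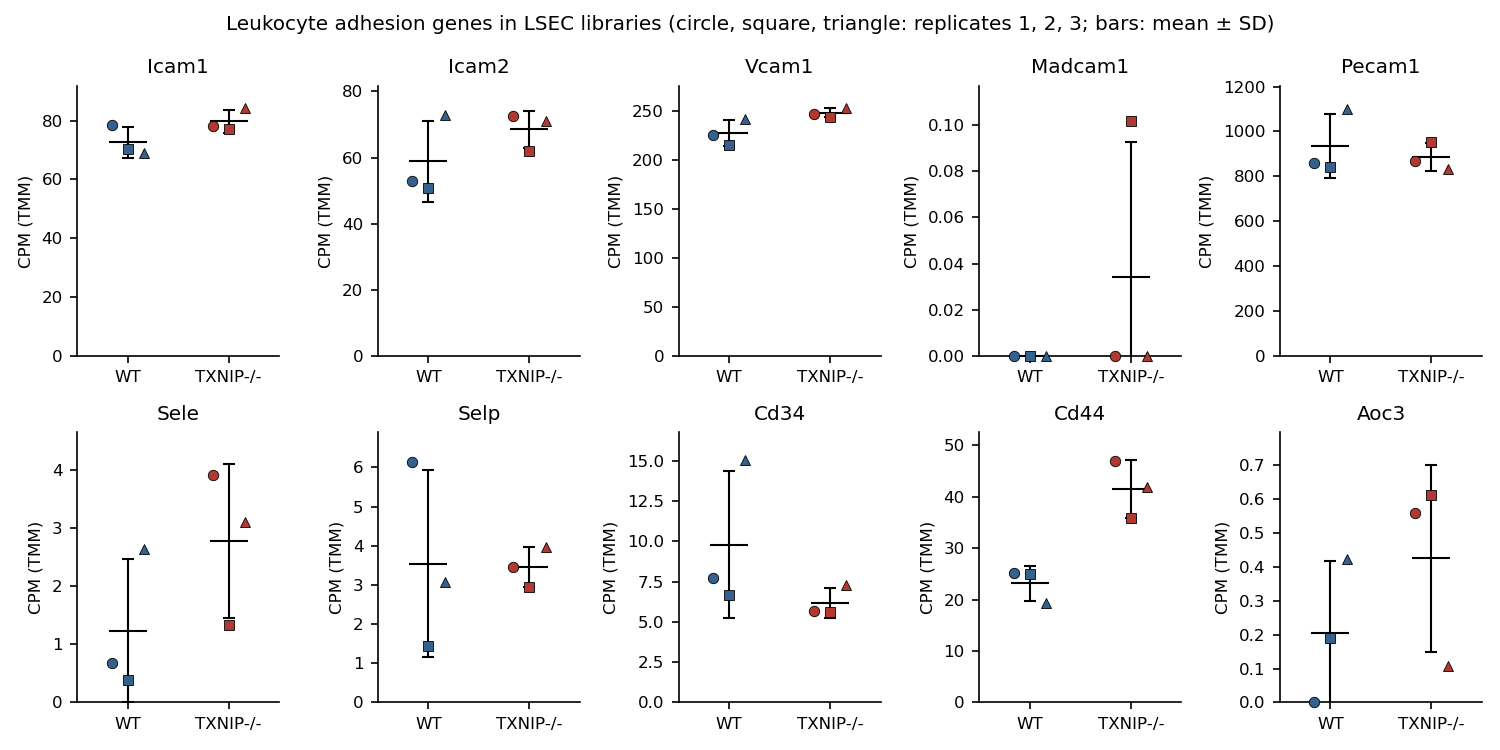
Level of each of the 10 adhesion genes in CPM after TMM scaling, by genotype, with 1 point per library (circle, square and triangle for replicates 1, 2 and 3) and bars for mean ± SD (n = 3). The *Cd44* points of TXNIP-/- LSECs, at 35.8 to 47.0 CPM, lie above those of WT LSECs at 19.3 to 25.1 CPM, while in *Icam1*, *Icam2*, *Pecam1*, *Sele*, *Selp* and *Cd34* the genotypes overlap.

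GENCODE M21 lists 9 transcripts of *Cd44* with up to 19 exons, 8 of them coding and with 6 distinct 3′ ends. No exon of another gene overlapped it at those ends. The counts are per gene, so the splice forms were not resolved. The genes most like *Cd44* over the 6 libraries, by Pearson's r of log2 CPM, were *Cct5* (0.997), *Trmt61a* (0.989) and *Phlda1* (0.989), and 219 of 11582 genes had an r above 0.9. These r describe 6 points that share 2 genotypes. *Cct5*, a subunit of the chaperonin TRiC, differed by 0.34 on the log2 scale and was not called (adjusted p = 0.102, edgeR). *Phlda1* rose by 1.13 on the log2 scale (adjusted p = 0.00187, edgeR), from 27.6 to 60.4 CPM. *Trmt61a*, a subunit of a tRNA methyltransferase, rose by 0.80 (adjusted p = 0.043).

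The other cells that can carry *Cd44* moved in both directions in these libraries. Markers of Kupffer cells and macrophages, which carry CD44, were lower, with 11 of 13 tested called down and a summed level of 391.7 to 424.9 CPM in TXNIP-/- against 848 to 904.3 CPM in WT. *Adgre1*, which encodes F4/80, was 2.21 ± 1.98 CPM in TXNIP-/- and 8.86 ± 0.42 CPM in WT and was called lower (adjusted p = 0.0495, edgeR). *Clec4f*, a Kupffer cell lectin, was 7.17 ± 2.96 against 15.9 ± 4.45 CPM (adjusted p = 0.0917). The lymphocyte list summed to 1.604 to 4.281 CPM against 4.48 to 6.29 CPM, with 8 of its 12 genes at 0 in every library. Most of that sum was *Ptprc*, the pan-leukocyte antigen CD45, at 2.72 ± 1.67 against 5.08 ± 0.99 CPM (adjusted p = 0.547, edgeR). Neutrophil markers summed to at most 2.68 CPM in any library, with 3 of 7 at 0 throughout. The Kupffer cell sum, and the lymphocyte sum that was mostly the pan-leukocyte *Ptprc*, did not overlap between genotypes. Both were lower in the libraries where *Cd44* was higher.

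Summed levels of mesenchymal markers were higher in TXNIP-/-, as *Cd44* was, but not every marker differed. The smooth muscle list summed to 125.4 to 136.4 CPM in TXNIP-/- and 69.4 to 86.9 CPM in WT, with *Acta2* and *Tagln* called higher among its 3 tested genes. *Smtn*, not called, and *Tagln* made up most of that sum, and 3 of the 6 genes listed were below the filter. The list of stellate cells and fibroblasts, which also carry CD44, summed to 58.2 to 80.6 CPM against 47.7 to 55.3 CPM, with 9 of 10 tested genes higher and *Dcn* called. Of the 10, 2 had an unadjusted p under 0.05 by edgeR, and *Des* was 2.87 ± 0.45 against 2.80 ± 0.85 CPM. *Lrat*, which stellate cells need to store retinoids, had 19, 8 and 12 counts in TXNIP-/- and 9, 0 and 0 in WT and was below the filter. The hepatocyte list summed to 46.1 to 58.5 CPM against 44.1 to 47.6 CPM, overlapping between genotypes, with 5 of 7 tested genes higher, a median log2 fold change of 0.63, none called by edgeR and 1 with an unadjusted p under 0.05. *Alb* of that list was 20.3 ± 7.37 against 22.4 ± 1.78 CPM. The list of cholangiocytes and mesothelium summed to 10.4 to 16.2 CPM against 6.57 to 9.94 CPM, and the platelet list to 19.5 to 26.8 against 14.4 to 19.6 CPM. The vessel endothelium list was 2134 to 2223 CPM against 2163 to 2410 CPM, a sum made up mostly of *Edn1*, with 3 of 8 tested genes higher and *Rspo3* called higher, at 25.3 ± 2.69 against 9.87 ± 2.59 CPM (adjusted p = 0.00302, edgeR). The LSEC list was 3748 to 4230 CPM against 4231 to 6469 CPM, a sum with *Lyve1* as its largest part. Its gap between genotypes was narrow, with TXNIP-/- replicate 3 at 4230 CPM and WT replicate 3 at 4231 CPM. By gene, all 15 were lower and 3 were called. The part of these cells in the *Cd44* difference was not tested, and in bulk libraries fewer cells of a type and less RNA per cell cannot be told apart.

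**Figure D2:**
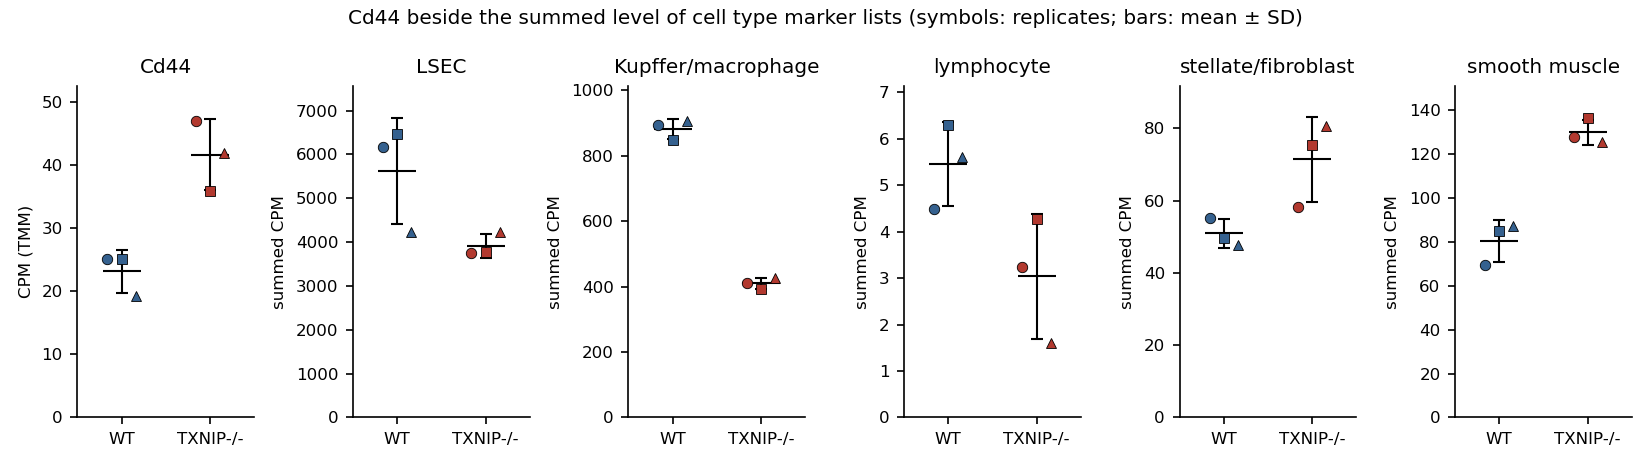
*Cd44* in CPM beside the summed CPM of 5 marker lists, by genotype, with 1 point per library and bars for mean ± SD (n = 3). The Kupffer cell and lymphocyte sums lie lower in TXNIP-/- LSECs, the lymphocyte sum being mostly *Ptprc*. In the LSEC sum, WT replicates 1 and 2 lie above the other libraries, with WT replicate 3 beside TXNIP-/- replicate 3. The stellate cell and smooth muscle sums lie higher, as does *Cd44*.

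The integrin ligands of the immunoglobulin family were well detected and none was called. *Icam1* (chromosome 9, 21015985 to 21028817, plus strand), the ligand of the leukocyte integrins LFA-1 and Mac-1, was 78.0, 77.1 and 84.1 CPM in TXNIP-/- replicates 1 to 3 and 78.5, 70.2 and 69.0 CPM in WT replicates 1 to 3. WT replicate 1 lay within the TXNIP-/- range. The means were 79.8 ± 3.83 and 72.6 ± 5.21 CPM, and the fold of 1.10 had a 95% interval of 0.94 to 1.29 (adjusted p = 0.706, edgeR). The annotated gene Gm47079 lies on the opposite strand and overlaps *Icam1*, and since the sources do not say whether strand was used, its reads cannot be told apart from those of *Icam1*.

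*Icam2* (chromosome 11, 106377656 to 106388075, minus strand) encodes a shorter LFA-1 ligand that resting endothelium carries constitutively. Its level was 72.5, 62.0 and 71.1 CPM in TXNIP-/- replicates 1 to 3, and 52.9, 50.9 and 72.9 CPM in WT replicates 1 to 3. WT replicates 1 and 2 were below all TXNIP-/- libraries and WT replicate 3 was above them. The means were 68.5 ± 5.70 and 58.9 ± 12.2 CPM, a fold of 1.16 with a 95% interval of 0.95 to 1.43 (adjusted p = 0.605, edgeR). Without WT replicate 3 the log2 fold change moved from 0.22 to 0.40 (adjusted p = 0.106, edgeR), and against that library alone it was -0.0895.

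*Vcam1* (chromosome 3, 116109949 to 116129688, minus strand) encodes the ligand of the integrin VLA-4 on lymphocytes and monocytes. It was 247.0, 244.5 and 253.4 CPM in TXNIP-/- replicates 1 to 3 and 225.5, 215.5 and 242.1 CPM in WT replicates 1 to 3. The lowest TXNIP-/- library was just above the highest WT library, so the genotypes did not overlap. The difference was small, with means of 248.3 ± 4.56 and 227.7 ± 13.5 CPM, a fold of 1.09 and a 95% interval of 0.96 to 1.24 (adjusted p = 0.643, edgeR). *Vcam1* and *Cd44* were the 2 of 8 tested members whose TXNIP-/- libraries all exceeded the WT libraries, against 8.43% of all genes tested, and for none of the 8 were they all below, against 8.94%.

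*Pecam1* (chromosome 11, 106654217 to 106750628, minus strand) encodes CD31, a homophilic receptor of endothelial junctions, and had the highest level of the set. It was 867.6, 954.7 and 832.8 CPM in TXNIP-/- replicates 1 to 3 and 860.6, 843.6 and 1098 CPM in WT replicates 1 to 3. The ranges overlapped, and WT replicate 3 was the highest library. The means were 885.1 ± 62.8 and 933.9 ± 142 CPM, a fold of 0.95 with a 95% interval of 0.82 to 1.09 (adjusted p = 0.851, edgeR). Without WT replicate 3 the log2 fold change was 0.0541 (adjusted p = 0.800, edgeR), and against that library alone it was -0.31. *Icam2* lies on the same chromosome 266.1 kb away, and it too was highest in WT replicate 3 among the 6 libraries. So was *Cd34*, at 15.0 CPM, which lies on chromosome 1.

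**Figure D3:**
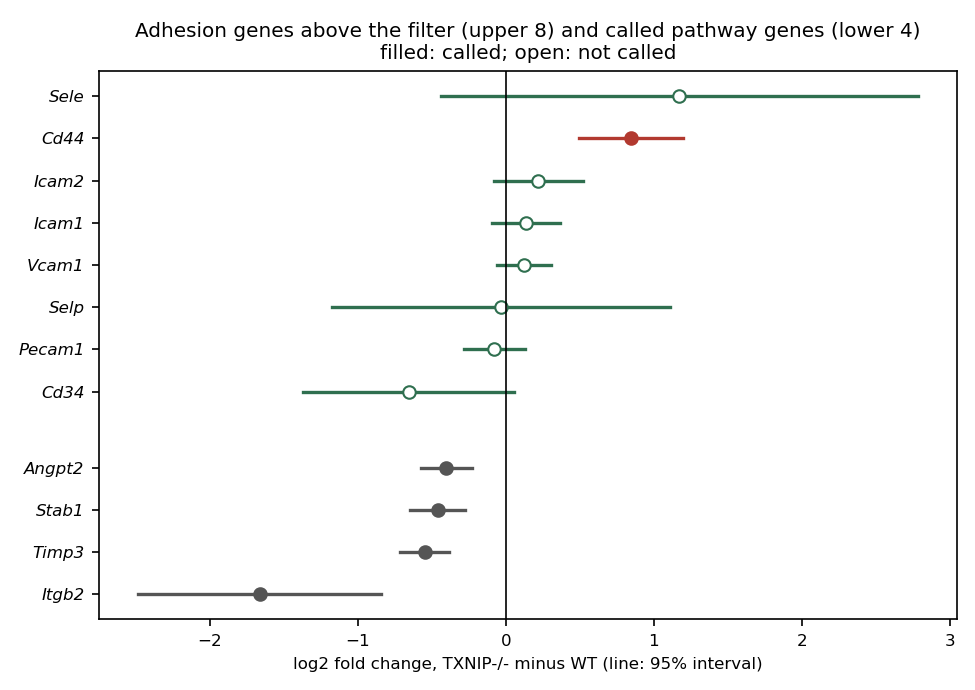
Log2 fold change of TXNIP-/- minus WT with its 95% interval for the 8 adhesion genes above the filter (upper group) and for the 4 other pathway genes called (lower group), with filled points for called genes. *Cd44* lies at 0.84 with an interval above 0, the narrow intervals of *Icam1*, *Icam2*, *Vcam1* and *Pecam1* include 0, and those of *Sele* and *Selp* are the widest.

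The endothelial selectins had low counts, and neither was called. *Sele* (chromosome 1, 164048234 to 164057677, plus strand), the cytokine-induced E-selectin, had 35, 13 and 29 counts in TXNIP-/- replicates 1 to 3 and 7, 4 and 25 counts in WT replicates 1 to 3. That is 3.908, 1.325 and 3.1 CPM against 0.681, 0.381 and 2.644 CPM. WT replicates 1 and 2 were below every other library, and WT replicate 3 was between the TXNIP-/- libraries. The fold was 2.25 with a 95% interval of 0.74 to 6.89 (adjusted p = 0.613, edgeR). Against WT replicate 3 alone the log2 fold change was 0.07, and without WT replicate 3 it was 2.36 (adjusted p = 0.216, edgeR), so its size turned on that library.

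*Selp* (chromosome 1, 164115264 to 164150026, plus strand), the P-selectin that platelets and endothelial Weibel-Palade bodies store, lies 57.6 kb from *Sele*. It had 31, 29 and 37 counts in TXNIP-/- replicates 1 to 3 and 63, 15 and 29 counts in WT replicates 1 to 3. WT replicates 1 and 2 were the highest and the lowest of the 6 libraries, with all TXNIP-/- libraries between them. The means were 3.46 ± 0.50 and 3.54 ± 2.39 CPM, a fold of 0.98 with a 95% interval of 0.44 to 2.16 (adjusted p = 0.988, edgeR). The sign of this difference was not stable, since without WT replicate 1 the log2 fold change was 0.62. The annotated gene Gm16548 overlaps *Selp* on the opposite strand.

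*Cd34* (chromosome 1, 194938819 to 194961279, plus strand) encodes a sialomucin of capillary endothelium and of blood progenitors that can present sugars to L-selectin. It was 5.70, 5.61 and 7.27 CPM in TXNIP-/- replicates 1 to 3, and 7.69, 6.67 and 15.0 CPM in WT replicates 1 to 3. TXNIP-/- replicate 3 exceeded WT replicate 2, so the genotypes overlapped, and WT replicate 3 was 2.09 times the mean of the other WT libraries. The means were 6.19 ± 0.94 and 9.79 ± 4.56 CPM, and the fold of 0.63 had a 95% interval of 0.39 to 1.04 (adjusted p = 0.481, edgeR). Without WT replicate 3 the log2 fold change was -0.21 (adjusted p = 0.872, edgeR), and against that library alone it was -1.28.

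*Madcam1* (chromosome 10, 79664559 to 79668537, plus strand), which encodes the mucosal ligand of the gut-homing integrin alpha4beta7, had 1 count in TXNIP-/- replicate 2 and 0 in the other 5 libraries. *Aoc3* (chromosome 11, 101330605 to 101341938, plus strand), the amine oxidase known as vascular adhesion protein 1, had 5, 6 and 1 counts in TXNIP-/- replicates 1 to 3 and 0, 2 and 4 in WT replicates 1 to 3. The floor of 3 counts in a library equals 0.294 to 0.328 CPM and covers counting error only. *Aoc3* was therefore near the floor, at up to 0.61 CPM, and *Madcam1* was below it, so a difference between genotypes was not detectable at this depth and no fold is given.

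The order of the levels in WT was *Pecam1*, *Vcam1*, *Icam1*, *Icam2*, *Cd44*, *Cd34*, *Selp*, *Sele*, *Aoc3* and *Madcam1*, and it was the same in TXNIP-/- by the means. Of the neighbors in this order, *Icam1* and *Icam2* overlapped across the WT libraries but not across the TXNIP-/- libraries. *Selp* and *Sele* overlapped in both genotypes, *Sele* and *Aoc3* overlapped in WT, and *Aoc3* and *Madcam1* were near or under the floor.

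Other genes of leukocyte adhesion were read from 8 lists by role. Of their 96 genes, 72 passed the filter, 26 of them higher and 46 lower in TXNIP-/-, with a median log2 fold change of -0.07 beside 0 for all genes tested. *Itgb2*, *Stab1*, *Angpt2* and *Timp3* were called, all lower, which is 5.56% of the 72 against 1.44% of all genes. *Stab1* is also on the LSEC marker list and *Itgb2* is a leukocyte gene, and the LSEC and macrophage lists were lower in these libraries as given above. Leaving out TXNIP-/- replicate 2 left 1 call, leaving out TXNIP-/- replicate 3 left 2, and leaving out WT replicate 3 gave 8.

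The counter-receptors on leukocytes were few, with 4 of 11 genes above the filter and a median log2 fold change of -1.31. *Itgb2* (chromosome 10, 77530252 to 77565708, plus strand), the beta2 integrin chain that pairs to form the receptors of ICAM-1, was 1.68, 2.85 and 3.74 CPM in TXNIP-/- replicates 1 to 3, and 8.66, 10.6 and 7.09 CPM in WT replicates 1 to 3. All TXNIP-/- libraries were below all WT libraries. It fell by 1.66 on the log2 scale with a standard error of 0.39 (adjusted p = 0.0388, edgeR). *Itgb1*, the beta1 chain that most cells express and that pairs into the VCAM-1 receptor, was 727.6 ± 29.8 against 759.4 ± 100 CPM (adjusted p = 0.878, edgeR). The call of *Itgb2* was lost without TXNIP-/- replicate 1 or 2 (adjusted p = 0.141 and 0.110, edgeR) and without WT replicate 1 or 2 (adjusted p = 0.169 and 0.275). Against WT replicate 3 alone its log2 fold change was -1.36.

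Besides *Cd44*, hyaluronan is bound in the sinusoid by *Lyve1* and by *Stab2*, the main clearance receptor for it. *Stab2* was 184.9, 186.5 and 194.9 CPM in TXNIP-/- replicates 1 to 3 and 252.5, 230.8 and 245.4 CPM in WT replicates 1 to 3, so the genotypes did not overlap. Its adjusted p was 0.0448 by edgeR, but its log2 fold change of -0.36 was under the fold threshold. *Lyve1* was 1475, 1642 and 1976 CPM in TXNIP-/- replicates 1 to 3, and 3482, 3780 and 1520 CPM in WT replicates 1 to 3. WT replicates 1 and 2 stood well above the other 4 libraries, and the difference was not called (log2 fold change -0.79, adjusted p = 0.088, edgeR). Against WT replicate 3 alone its log2 fold change was 0.16. Without WT replicate 3 it was -1.10 and called lower (adjusted p = 5.16e-08, edgeR). The edgeR fit with no filter on low counts also called *Lyve1* lower, at -0.79. However, WT replicate 3 lay within the TXNIP-/- range, and DESeq2 did not call *Lyve1* (adjusted p = 0.442). None of the 6 tested genes of hyaluronan synthesis and turnover was called in the main edgeR fit or by DESeq2. Of these 6, 2 had an unadjusted p under 0.05, and their median was -0.24. Of these hyaluronan receptors *Cd44* was called higher, and the mean values of *Stab2* and *Lyve1* were lower.

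**Figure D4:**
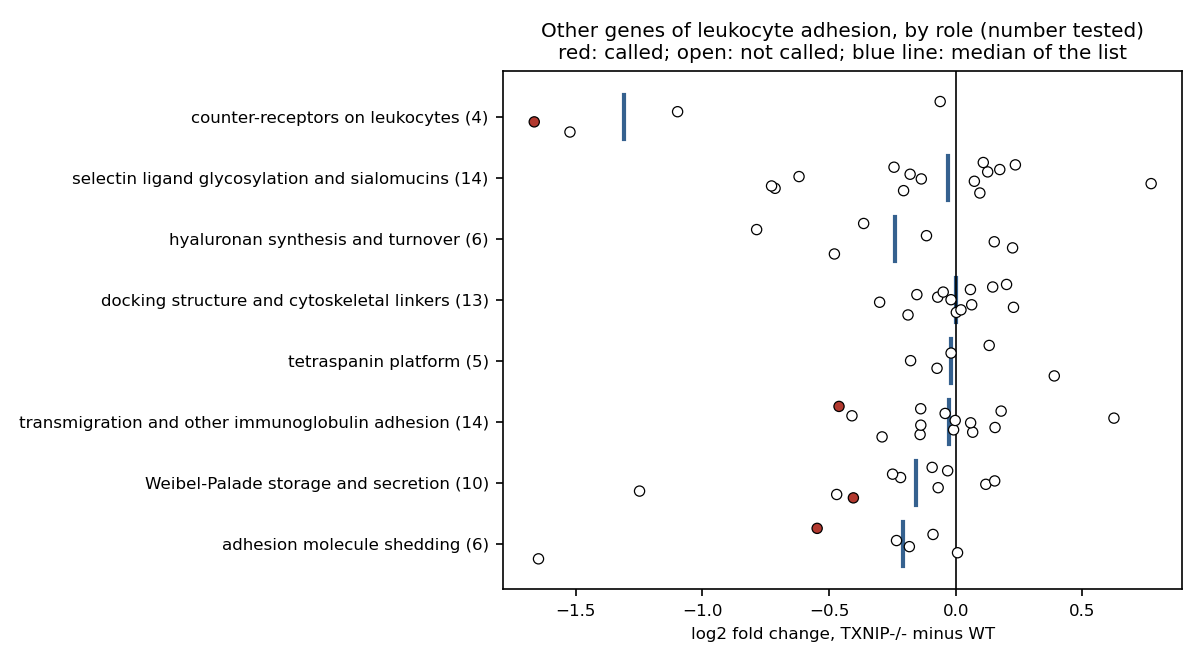
Log2 fold change of TXNIP-/- minus WT for the 72 tested genes of 8 leukocyte adhesion lists, with 1 point per gene, red for called genes and a blue line at the median of each list. The medians lie between -0.24 and 0.00 except for that of the 4 counter-receptor genes at -1.31, and the 4 called genes lie to the left of 0.

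The machinery around the adhesion molecules held few calls. Among 14 genes for selectin ligand sugars and sialomucins, 7 were higher and 7 lower with a median of -0.03 and none called, and *B4galt1*, a galactosyltransferase, was 350.7 ± 17.95 against 321.4 ± 5.14 CPM (adjusted p = 0.611, edgeR). Among 13 docking and cytoskeletal linker genes, 7 were higher and 6 lower with a median of 0.00 and none called, and *Actn1*, the actin crosslinker alpha-actinin, was 1604 ± 53.7 against 1535 ± 67.3 CPM (adjusted p = 0.819). The 5 tetraspanins, which group adhesion molecules in the membrane, had a median of -0.02 and none called, with *Cd63* at 1223 ± 36.7 against 1238 ± 147 CPM. In these 3 lists DESeq2 made no call either, and an unadjusted p under 0.05 by edgeR was found for 2, 2 and 1 genes. Without WT replicate 3, edgeR called *B3gnt3* of the sugar list and *Actn4* of the linker list lower. With no filter on low counts it called *B3gnt3* lower.

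Of 14 tested genes of transmigration and other adhesion, *Stab1* (chromosome 14, 31139013 to 31168641, minus strand), a scavenger receptor that can also mediate leukocyte passage, was called. It was 272.1, 241.9 and 247.4 CPM in TXNIP-/- replicates 1 to 3 and 327.7, 344.7 and 375.5 CPM in WT replicates 1 to 3, without overlap, and fell by 0.46 on the log2 scale (standard error 0.09, adjusted p = 0.00984, edgeR). *Cd93*, an endothelial surface lectin, was 2854 ± 62.6 against 2521 ± 103 CPM and was not called (adjusted p = 0.256). The median of this list was -0.03. The call of *Stab1* was lost without TXNIP-/- replicate 2 or 3 (adjusted p = 0.0839 and 0.0739, edgeR), and the gene Nt5dc2 overlaps it on the opposite strand.

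Weibel-Palade bodies are the endothelial granules that release P-selectin and angiopoietin-2. *Angpt2* (chromosome 8, 18690263 to 18741562, minus strand), which encodes angiopoietin-2, was 680.6, 619.7 and 597.5 CPM in TXNIP-/- replicates 1 to 3 and 802.7, 807.2 and 901.4 CPM in WT replicates 1 to 3. The genotypes did not overlap, and it fell by 0.40 on the log2 scale (standard error 0.08, adjusted p = 0.0145, edgeR). Of the 10 tested genes of this list 8 were lower, with a median of -0.16, and *Angpt2* was the only call. *Vwf*, also on this list, was below the filter. It had 0, 13 and 0 counts in TXNIP-/- replicates 1 to 3 and 0, 0 and 3 in WT replicates 1 to 3. The call of *Angpt2* was lost without TXNIP-/- replicate 2 or 3 (adjusted p = 0.0910 and 0.118, edgeR). It was also lost without WT replicate 3, as the log2 fold change became -0.35.

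Adhesion molecules including CD44, ICAM-1 and VCAM-1 are cut from the surface by metalloproteases, and *Timp3* (chromosome 10, 86300372 to 86349506, plus strand) encodes an inhibitor of them. *Timp3* was 358.4, 357.4 and 352.0 CPM in TXNIP-/- replicates 1 to 3 and 513.5, 502.9 and 544.0 CPM in WT replicates 1 to 3. The spread within each genotype was small beside the gap between them. It fell by 0.55 on the log2 scale with a standard error of 0.08 (adjusted p = 0.000682, edgeR), and it was called in all 16 alternative fits, though not where a log2 fold change beyond 1.3 was required. Of the 6 tested shedding genes 5 were lower, with a median of -0.21, and no protease among them was called in the main edgeR fit. *Adam8*, a metalloprotease named here after its values were seen, was 2.60 ± 1.13 against 8.13 ± 1.599 CPM (adjusted p = 0.0577, edgeR). DESeq2 and limma-trend called *Adam8* lower, as did edgeR with no filter on low counts or with no normalization factors. *Syn3* overlaps *Timp3* on the opposite strand.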

How the data were processed

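RNA of LSECs from 3 TXNIP-/- and 3 WT libraries was sequenced as QuantSeq 3′ mRNA libraries. The authors used Bowtie2 for alignment and Bedtools coverage for counting, kept reads that align more than once, and deposited whole-number counts for each gene symbol with no normalization. The submitters' processing notes name mm10, and tool versions, annotation and use of strand are not given in the sources used here. Reads with several alignments can give a gene counts of near-identical copies. The libraries held 9147764 to 10193952 counts, and 44 of 23282 rows repeat a symbol and were kept apart.

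Counts were tested with edgeR 4.0.16 in R 4.3.3 (filterByExpr, TMM, glmQLFit and glmQLFTest, genotype as the single term, Benjamini-Hochberg adjustment over 11583 genes). The call needed an adjusted p under 0.05 and a fold above 1.3. The study's thresholds give 1.3 as a log fold change, read here as a fold, with the other reading as an alternative. Standard errors and 95% intervals were derived from the fold change and the F statistic of the test. On data simulated for this comparison, with 11353 genes tested, 63 of 97 genes changed 2-fold and 88 of 98 changed 4-fold were called, with 9 unchanged genes. Gene positions were taken from GENCODE M21 (GRCm38) by symbol. Overlaps with other genes were sought only among exons at the 3′ ends, not over the whole gene.

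The adhesion genes and all lists were chosen with earlier results of these data known. Genes named were every adhesion gene, every pathway gene called, the gene of each pathway list with the highest mean CPM, the markers *Stab2*, *Lyve1*, *Adgre1*, *Clec4f*, *Ptprc*, *Alb* and *Lrat*, *Txnip*, and the 3 genes most correlated with each called adhesion gene. *Acta2*, *Tagln*, *Smtn*, *Dcn*, *Des*, *Rspo3*, *Edn1*, *Adam8*, *Vwf*, *Mcam*, *F11r*, *B3gnt3*, *Actn4* and *Rn45s* were named after their values were seen. The 2 pathway genes *Cemip2* and *Nectin3* were matched by older symbols. *Nectin2* was planned for the transmigration list but was not read as a gene of its own, so no value of it is given. Alternatives were DESeq2 1.42.0, limma-trend (limma 3.58.1, log2 CPM with a prior count of 2), other scaling factors, other filters, a replicate block, a term for WT replicates 1 and 2, no *Rn45s*, each library left out and other thresholds.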

Additional observations from a re-analysis of the deposited data

How the results depend on the processing

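The number of genes called was 167, and became 301 with no filter on low counts, 108 with a replicate block, 57 with a log2 fold change beyond 1.3 and 867 by unadjusted p, and ranged from 89 to 301 when 1 library was left out. The number of adhesion genes called was 1 and became 0 with a log2 fold change beyond 1.3, and ranged from 0 to 1 when 1 library was left out. The number of pathway genes called was 4 and became 7 with no filter, 1 with a replicate block, 1 with a log2 fold change beyond 1.3 and 10 by unadjusted p, and ranged from 1 to 8 when 1 library was left out. DESeq2 called 214 genes, with *Cd44* as the only adhesion gene. With no normalization factors *Stab2* and *Adam8* were also called lower.

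*Cd44* stayed higher in all 16 alternative fits, with log2 fold changes of 0.73 to 1.11 and adjusted p of 0.000253 to 0.0977. The lowest of these p-values came from the edgeR fit with no filter on low counts. Signs turned for *Icam2* with a term for WT replicates 1 and 2 (-0.0895), for *Lyve1* with that term (0.16), and for *Selp* with that term (0.17), with limma-trend (0.17) and with the replicate block (0.16). With 1 library left out, *Selp* ranged from -0.41 to 0.62 and *Pecam1* from -0.146 to 0.0541. None of these signs belonged to a call. The cause of these changes was not tested.

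Same-numbered libraries had correlations of their deviations from the genotype means of -0.03, 0.02 and -0.05. The sources used here do not say whether they were paired, and with so few libraries these values cannot settle it. With the replicate block *Cd44* had a log2 fold change of 0.84 and an adjusted p of 0.0265, and of the 4 pathway genes *Timp3* was still called while *Itgb2* (adjusted p = 0.0857, edgeR), *Stab1* (0.0507) and *Angpt2* (0.0722) were not. With no normalization factors the median of all genes moved by -0.08, and *Cd44* was 0.76 (adjusted p = 0.0414, edgeR). *Sele*, *Selp*, *Aoc3* and *Madcam1* had 63 counts or fewer in every library, and *Aoc3* and *Madcam1* were below the filter.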
